A study of Mus musculus with 6 samples.

Results

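The genes described here encode the amino acid and neurotransmitter transporters of 7 mouse solute carrier families, Slc1, Slc3, Slc6, Slc7, Slc36, Slc38 and Slc43. They were taken by name, as the protein-coding genes whose symbol starts with one of these family names, leaving out Slc7a12. That gave 63 of the 54532 named genes of the count table, and 44 of the 63 had enough reads to be tested. One of the 63, Slc7a6os, carries a family name but encodes no transporter. The study sequenced kidney mRNA of mice labelled Lpar3-/-, a label for loss of lysophosphatidic acid receptor 3, and of wild-type (WT) mice, with 3 libraries in each group. All mice had been kept at 8% oxygen for 12 h at normal pressure, so a difference between the groups is one of genotype label under hypoxia, and a response to hypoxia itself was not analysed here. The sources used here give neither age, sex and strain nor the design of the Lpar3 allele.

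Amino acids are filtered freely in the glomerulus, and the proximal tubule recovers nearly all of them. Carriers in the brush border, many of them driven by sodium, take them up from the tubular fluid, and other carriers in the basolateral membrane pass them on to the blood. Several carriers work as pairs, in which a light chain of the Slc7 family is held in the membrane by a heavy chain, Slc3a1 on the apical side and Slc3a2 on the basolateral side. Other family members move osmolytes such as taurine and betaine, clear neurotransmitters in the brain, supply growing cells or act in lysosomes.

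The libraries labelled Lpar3-/- held 16032392 to 17789664 reads assigned to genes and the WT libraries 16011804 to 17991881. Lpar3 itself did not set the groups apart, with 672, 592 and 580 counts in the libraries labelled Lpar3-/- and 645, 634 and 577 in WT (log2 fold change 0.0033, SE 0.081, edgeR adjusted p = 0.997). The counts are per gene and cannot show a missing exon, so every direction below rests on the labels. Nothing in the labels states whether each library is from its own mouse, and the p-values then measure only library-to-library spread, which may be technical. In whole-kidney RNA, fewer cells of a type and less RNA per cell cannot be told apart. Markers of the tubule were present, from Lrp2 (26167 to 31406 counts in the libraries labelled Lpar3-/-, 26626 to 28164 in WT) to Umod and Aqp2.

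Most of the transporter reads fell on a few genes, many of them carriers of the proximal tubule. By FPKM, the authors' values per gene length that allow genes to be compared, 17 of the 63 genes averaged at least 10, 17 lay between 1 and 10, and 29 were under 1. The highest was Slc3a1, the heavy chain of the cystine and dibasic amino acid transporter, at 237, 236 and 236 FPKM in the libraries labelled Lpar3-/- and 213, 242 and 206 FPKM in WT. Then came Slc6a18, a carrier of glycine and other neutral amino acids (166 to 170.3 FPKM in the libraries labelled Lpar3-/- and 142 to 160.3 FPKM in WT), Slc7a13, a light chain for acidic amino acids and cystine (119 to 129.9 FPKM in the libraries labelled Lpar3-/- and 102 to 163 FPKM in WT), and Slc6a19, the main apical carrier of neutral amino acids (119 to 132 FPKM in the libraries labelled Lpar3-/- and 100.2 to 109.8 FPKM in WT). Slc6a6, the taurine carrier, had 110.5 to 119 FPKM in the libraries labelled Lpar3-/- and 93.5 to 103 FPKM in WT. The 12 genes with the highest mean FPKM held 78.8% of all counts of the 63 genes.

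**Figure D1:**
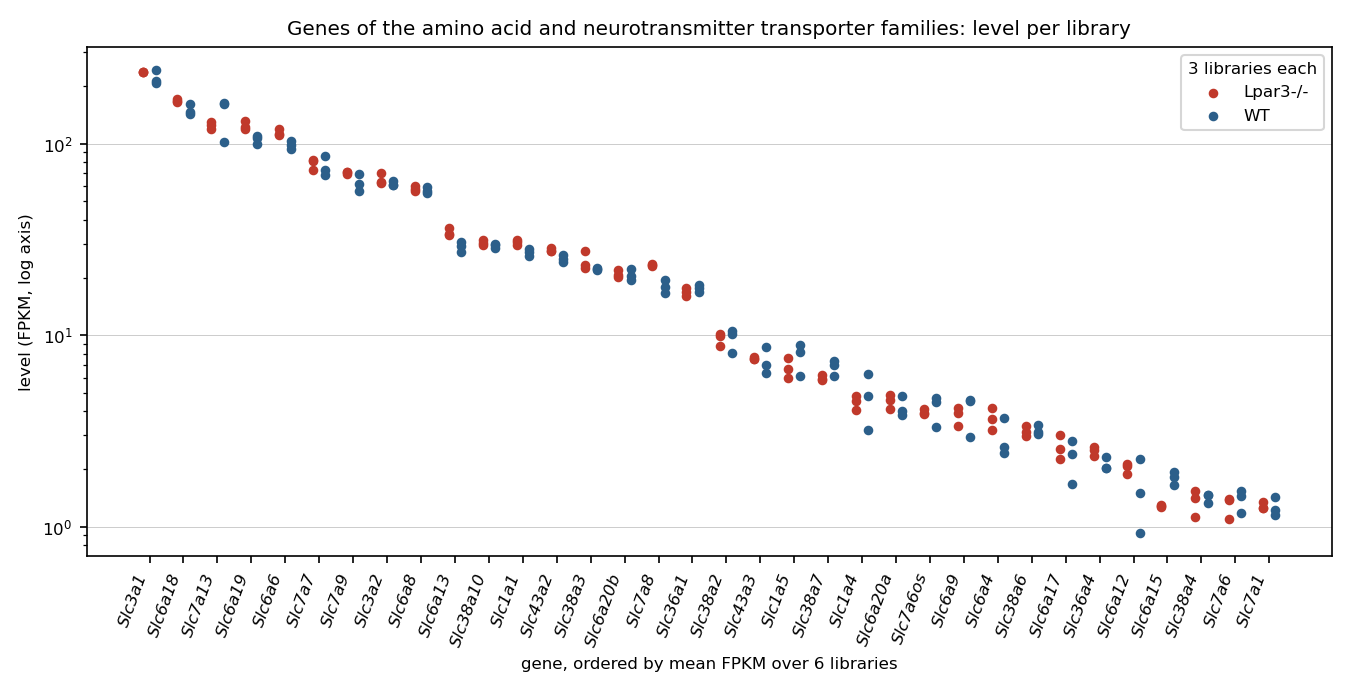
Level in FPKM (log axis) of each gene with a mean of at least 1 FPKM, in the 3 libraries labelled Lpar3-/- (red, left of each pair) and the 3 WT libraries (blue). Levels run from Slc3a1 at 206 to 242 FPKM down to genes near 1 FPKM, and for most genes the points of the 2 groups lie close together.

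Together the 63 genes took 0.586%, 0.575% and 0.587% of the counts in the libraries labelled Lpar3-/- and 0.520%, 0.550% and 0.559% in WT. In CPM, counts scaled to each library's size with TMM factors, their sum was 5857 ± 63.7 in the libraries labelled Lpar3-/- and 5417 ± 162 in WT (SD, n = 3 each). All libraries labelled Lpar3-/- thus lay above all WT libraries in the summed level.

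No single member passed the test across all genes. EdgeR's quasi-likelihood test, with Benjamini-Hochberg adjustment over 15225 genes and a threshold of 0.05, called 0 of the 44, against 0.374% of all genes. DESeq2 called 2 members, Slc7a8 and Slc36a2, but it called 171 genes in all where edgeR called 57. Limma-voom called 0 members. An unadjusted p under 0.05 was reached by 10 of the 44 (22.7%), against 9.18% of all genes tested, 6 of them higher (13.6%, against 3.97%) and 4 lower (9.09%, against 5.21%) in the libraries labelled Lpar3-/-. The 3 libraries of one group lay apart from the 3 of the other for 12 members (27.3%), against 13.7% of all genes. Of these, 8 lay above WT (18.2%, against 6.58%) and 4 below (9.09%, against 7.12%). The median log2 fold change of the 44 was 0.030 and that of all genes -0.0036. These shares describe the list and carry no test of their own.

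The members were also described by level. Of the 17 members with a mean of at least 10 FPKM, 15 had a positive log2 fold change, with a median of 0.14, and all 6 with an unadjusted p under 0.05 were higher in the libraries labelled Lpar3-/-. Among all 4578 tested genes at that level, 55.5% were positive, with a median of 0.013. At an unadjusted p under 0.05, 6.14% of them were higher and 5.57% lower. Of the 17 members from 1 to 10 FPKM, 7 were positive, with a median of -0.022, against 47.6% of all genes at that level. Of the 10 tested members under 1 FPKM, 3 were positive (30.0%, against 42.5% of all genes at that level) and 7 had a negative log2 fold change, with a median of -0.12, and 3 had an unadjusted p under 0.05, all lower. Among all 3179 tested genes under 1 FPKM the median was -0.064, and 2.36% were higher and 5.66% lower at an unadjusted p under 0.05. The bounds of 10 and 1 FPKM were set for this description after the values were seen, and no test was made on the split.

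**Figure D2:**
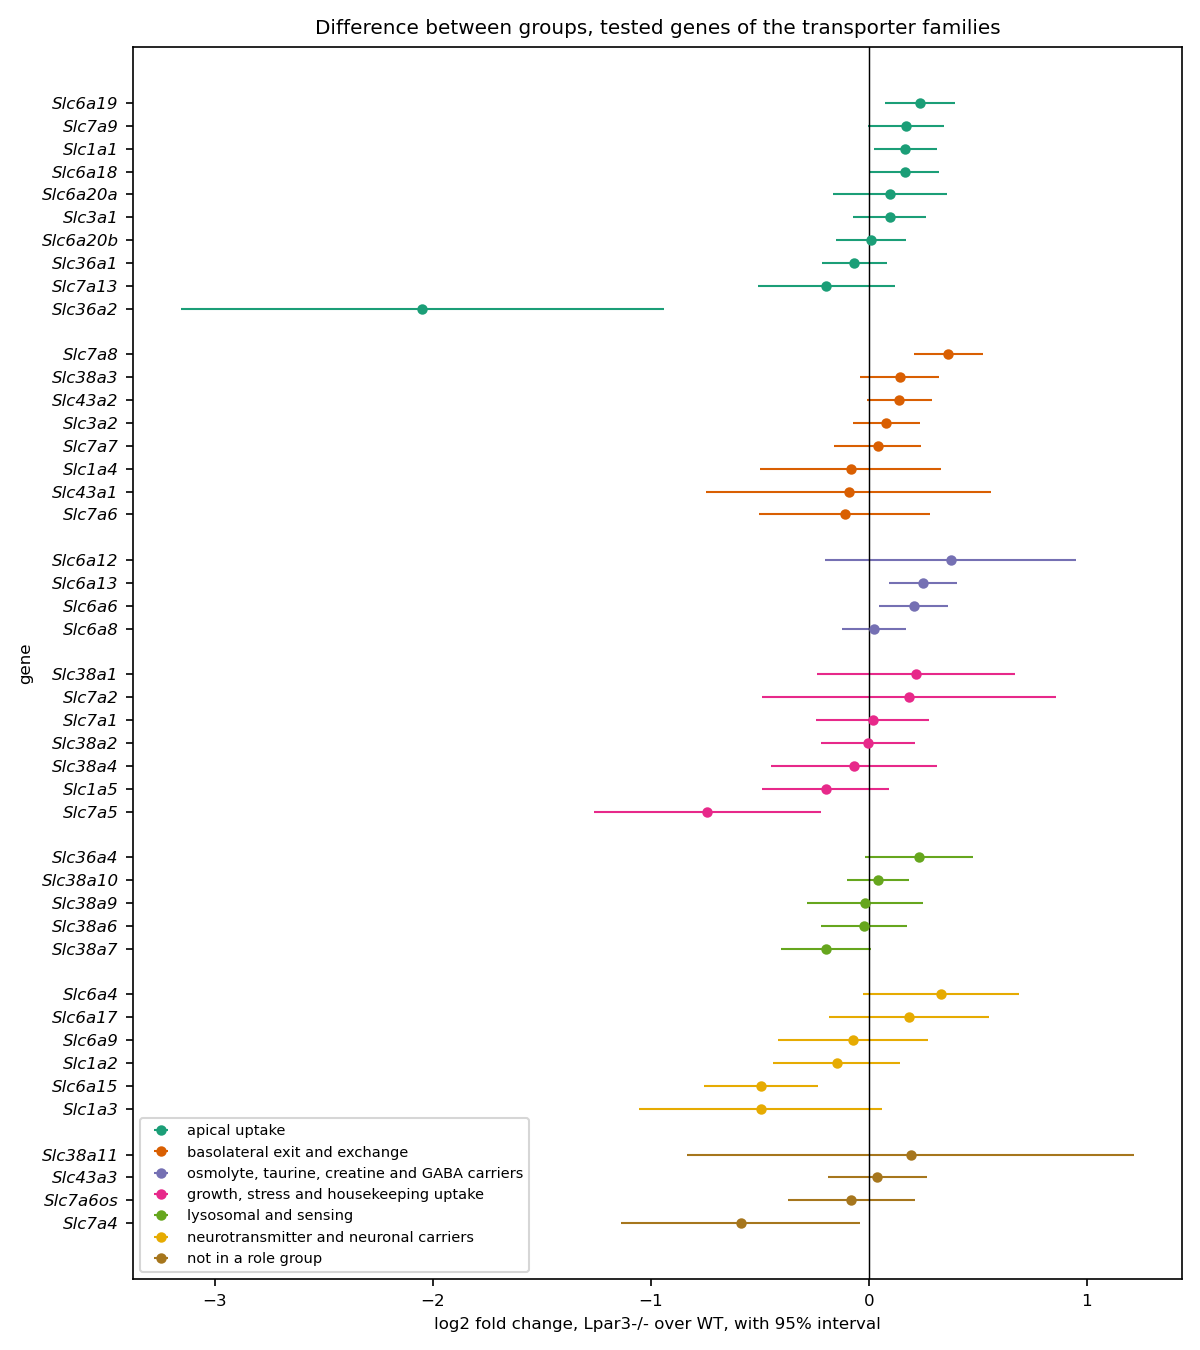
Log2 fold change (libraries labelled Lpar3-/- over WT) with its 95% interval for the 44 tested members, grouped by role, from edgeR with 3 libraries per group. Most points lie within 0.25 of zero, and Slc36a2 at -2.05 stands furthest from it.

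The member with the lowest p was Slc7a8, the light chain LAT2, which exchanges neutral amino acids across the basolateral membrane of the proximal tubule. It had 119, 117 and 116 CPM in the libraries labelled Lpar3-/- and 98.6, 90.3 and 84.2 CPM in WT. The 3 libraries labelled Lpar3-/- were close together and all above WT. This 1.29-fold difference (log2 fold change 0.36, SE 0.072, 95% interval 0.21 to 0.52) had an edgeR adjusted p of 0.0635. It was past the threshold in DESeq2 (0.00354), in edgeR with no expression filter (0.0015) and without WT replicate 1 (0.0219), and short of it in the other alternatives, at 0.0526 to 0.320. Slc7a8 (ENSMUSG00000022180) spans 54722209 to 54781946 on the minus strand of chromosome 14 in GRCm38.

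The upstream sequences of the 3 higher members with the lowest p among those in the RefSeq table are shown as the start regions of the genes described first. They hold the 250 bases before the transcript start in GRCm38.p6, at chr14:54781887-54782136 (minus strand) for Slc7a8, chr6:121300038-121300287 (plus strand) for Slc6a13 and chr13:73692637-73692886 (minus strand) for Slc6a19, 5′ to 3′. The RefSeq start of Slc6a19 lies 12229 bases inside the longer gene model of the count table. Capitals mark ACGTG, a form of the core of the hypoxia response element, searched on both strands. Also searched was GTTAAT, a core of the motif bound by the tubular factor HNF1. Other forms of the hypoxia core, such as GCGTG, were not searched and are not marked.
Slc7a8: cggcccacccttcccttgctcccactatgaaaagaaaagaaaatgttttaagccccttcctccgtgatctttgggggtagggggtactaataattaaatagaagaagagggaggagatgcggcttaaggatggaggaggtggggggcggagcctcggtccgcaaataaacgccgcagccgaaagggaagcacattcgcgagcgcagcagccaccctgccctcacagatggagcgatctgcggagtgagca
Slc6a13: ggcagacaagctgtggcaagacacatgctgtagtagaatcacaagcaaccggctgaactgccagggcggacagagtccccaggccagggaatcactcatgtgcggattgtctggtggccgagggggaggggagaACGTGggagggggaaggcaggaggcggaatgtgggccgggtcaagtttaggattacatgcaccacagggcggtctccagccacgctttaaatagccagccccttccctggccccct
Slc6a19: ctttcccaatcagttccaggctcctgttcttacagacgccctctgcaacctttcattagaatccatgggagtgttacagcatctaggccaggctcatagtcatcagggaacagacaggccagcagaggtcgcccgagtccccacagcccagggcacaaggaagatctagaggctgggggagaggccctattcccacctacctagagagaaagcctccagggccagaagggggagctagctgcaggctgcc
Only Slc6a13 held one of the 2 motifs among these 3, an ACGTG that starts 116 bases before the transcript start. Of the 31 tested members in the RefSeq table, 7 (22.6%) held ACGTG in at least one upstream window and 4 (12.9%) held GTTAAT. Among all 27025 genes in the table the shares were 18.5% and 7.49%. A match describes these letters and is not evidence of binding.

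Among the 10 genes grouped as apical carriers, all were tested and 0 were called, against 0.374% of all genes. An unadjusted p under 0.05 was reached by 3 higher members (30%, against 3.97% of all genes) and 1 lower member (10%, against 5.21%). Slc6a19, which encodes B0AT1, the carrier altered in Hartnup disorder, had 599, 619 and 665 CPM in the libraries labelled Lpar3-/- and 506, 553 and 541 CPM in WT. The groups did not overlap, and the log2 fold change was 0.24 (SE 0.073, edgeR adjusted p = 0.293). Its neighbour Slc6a18 lies 1721 bases away on the same strand of chromosome 13. It had 742, 738 and 759 CPM in the libraries labelled Lpar3-/- and 715, 647 and 636 CPM in WT, again without overlap (log2 fold change 0.16, SE 0.073, edgeR adjusted p = 0.527). Slc6a3, the dopamine transporter gene next along the same chromosome, was at 0 counts in all 6 libraries.

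Slc1a1, the apical carrier of glutamate and aspartate, showed a like small difference. It had 194, 190.3 and 185 CPM in the libraries labelled Lpar3-/- and 162, 174 and 170.3 CPM in WT, with no overlap between the groups (log2 fold change 0.17, SE 0.066, edgeR adjusted p = 0.441). In GENCODE M21 its exons share 2631 of 8257 bases with 4430402I18Rik on the opposite strand. The count table gives the gene a length of 6170 bases, so how much of this overlap was counted is not known. How the counting treated strand is not stated.

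The genes of the cystine transporter had small positive log2 fold changes with overlapping groups, and neither was called. Slc7a9, the light chain b0,+AT, had 186, 192 and 192 CPM in the libraries labelled Lpar3-/- and 167, 188 and 153 CPM in WT, where WT replicate 2 lay within the other group (log2 fold change 0.17, SE 0.080, edgeR adjusted p = 0.565). Its heavy chain Slc3a1 had 549, 548 and 549.6 CPM against 497, 562 and 482 CPM in WT (log2 fold change 0.10, SE 0.076, edgeR adjusted p = 0.786). The Slc3a1 gene shares 601 exonic bases with Prepl on the opposite strand, so part of its count is uncertain.

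Slc7a13, the other light chain of Slc3a1, which is placed in the late proximal tubule, varied widely within WT. It had 269, 279.8 and 257 CPM in the libraries labelled Lpar3-/- and 220.5, 348 and 353 CPM in WT. WT replicate 1 lay below the libraries labelled Lpar3-/-, and the other 2 WT libraries lay above them. The log2 fold change was -0.19 (SE 0.14, edgeR adjusted p = 0.765) with all libraries and -0.38 (edgeR adjusted p = 0.0378) without WT replicate 1. Other markers of this segment leaned lower. Of 10 listed, 7 had a negative and 3 a positive log2 fold change, with a median of -0.30. An unadjusted p under 0.05 was reached by 5 lower markers and 1 higher marker, against 5.21% and 3.97% of all genes tested. The higher one was Aqp1, a water channel gene, at 1172 ± 26.6 CPM in the libraries labelled Lpar3-/- and 982 ± 24.0 CPM in WT (SD, n = 3 each). Of the 10, 2 were called lower, against 0.25% of all genes. They were Slco1a1 (220 ± 38.8 against 441 ± 61.8 CPM in WT, edgeR adjusted p = 0.00743) and Cyp7b1 (84.0 ± 15.0 against 163 ± 43.5 CPM in WT, edgeR adjusted p = 0.0357; SD, n = 3 each). The summed level of the 10 was 4972 to 5392 CPM in the libraries labelled Lpar3-/- and 5192 to 6236 CPM in WT, and its part in the values of Slc7a13 was not tested.

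Per length, the 2 apical light chains Slc7a9 and Slc7a13 together amounted to 0.826 ± 0.024 of the Slc3a1 level in the libraries labelled Lpar3-/- and 0.928 ± 0.15 in WT (ratio of FPKM, SD, n = 3 each). In WT the ratio ran from 0.768 in replicate 1 to 1.06 in replicate 3, which spans the other group. On the basolateral side, the light chains Slc7a5, Slc7a6, Slc7a7 and Slc7a8 summed to 1.59 ± 0.10 of the Slc3a2 level in the libraries labelled Lpar3-/- and 1.56 ± 0.12 in WT, a difference within the spread between libraries.

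The proline and glycine carriers of the apical group lay at very different levels. Slc6a20b and Slc6a20a, neighbouring mouse copies of the proline carrier gene on chromosome 9, averaged 20.7 and 4.38 FPKM over the 6 libraries. Slc6a20b had 188, 176 and 173 CPM in the libraries labelled Lpar3-/- and 167, 190.3 and 176 CPM in WT (log2 fold change 0.01, SE 0.073). Slc6a20a had 16.9, 19.0 and 20.1 CPM in the libraries labelled Lpar3-/- and 15.7, 19.9 and 16.7 CPM in WT (log2 fold change 0.10, SE 0.12). The groups overlapped for both. As copies of one gene they may share reads, and exons of each overlap genes on the other strand. Slc36a1, a proton-coupled carrier of small amino acids, had 100.1, 90.9 and 95.6 CPM in the libraries labelled Lpar3-/- and 100.3, 104 and 96.0 CPM in WT (log2 fold change -0.07, SE 0.068).

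**Figure D3:**
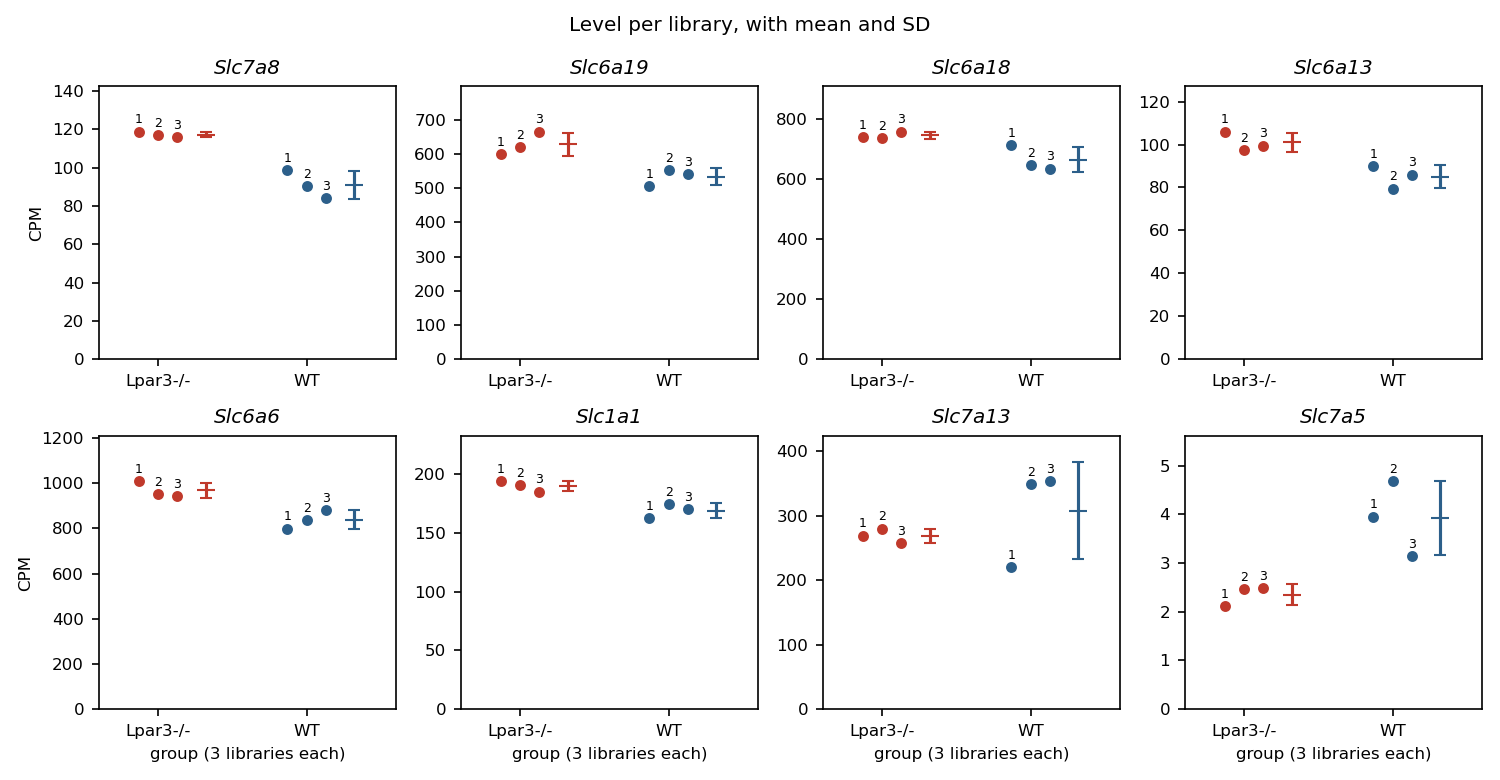
Level in CPM of 8 members in each library labelled Lpar3-/- (red, left) and WT (blue, right), with replicate numbers and the mean and SD of each group (n = 3), on axes that start at 0. Slc7a8, Slc6a19, Slc6a18, Slc6a13, Slc6a6 and Slc1a1 lie higher in all libraries labelled Lpar3-/-, Slc7a5 lies lower, and Slc7a13 is spread widely in WT.

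In the group of 8 basolateral and exchange carriers, Slc7a8 was the single member with an unadjusted p under 0.05 (12.5%, against 9.18% of all genes). Slc43a2, the facilitated carrier LAT4 for branched-chain and aromatic amino acids, also had groups that did not overlap, with 286, 278 and 278 CPM in the libraries labelled Lpar3-/- and 267, 243 and 254 CPM in WT (log2 fold change 0.14, SE 0.068, edgeR adjusted p = 0.579). Slc38a3, the glutamine carrier SNAT3 that feeds ammonia production, had 119, 124 and 147 CPM against 116, 118 and 119.6 CPM in WT. Replicate 3 of the libraries labelled Lpar3-/- stood highest, and replicate 1 overlapped WT (log2 fold change 0.14, SE 0.083).

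The heavy chain Slc3a2 had 249, 225 and 223 CPM in the libraries labelled Lpar3-/- and 216, 226 and 217 CPM in WT (log2 fold change 0.08, SE 0.070). Slc7a7, the light chain that exports dibasic amino acids and is altered in lysinuric protein intolerance, had 269, 243 and 274 CPM against 244, 289 and 232 CPM in WT (log2 fold change 0.04, SE 0.091). The groups overlapped for both. The last 3 members were low. Slc1a4, a carrier of alanine, serine and cysteine, had 16.1, 18.01 and 19.2 CPM in the libraries labelled Lpar3-/- and 12.7, 24.7 and 19.1 CPM in WT (log2 fold change -0.08). Slc7a6, a light chain for dibasic and neutral amino acids, had 5.01, 6.36 and 6.47 CPM against 7.11, 6.69 and 5.44 CPM in WT (log2 fold change -0.11). Slc43a1, a relative of Slc43a2, had 3.08, 3.09 and 2.14 CPM against 2.14, 2.49 and 4.23 CPM in WT (log2 fold change -0.09), again with overlap.

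All 4 tested carriers of osmolytes, creatine and GABA had a positive log2 fold change, against 48.9% of all genes. Their median was 0.23, and 0 were called. Slc6a13, the carrier GAT2 for GABA and taurine, had 106, 97.4 and 99.5 CPM in the libraries labelled Lpar3-/- and 89.9, 79.5 and 86.0 CPM in WT (log2 fold change 0.25, SE 0.071, edgeR adjusted p = 0.25). Slc6a6, which brings taurine into tubule cells, had 1008, 953 and 943 CPM against 798, 836 and 882 CPM in WT (log2 fold change 0.21, SE 0.072, edgeR adjusted p = 0.368). The groups did not overlap for either gene.

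Slc6a12, the betaine carrier of the renal medulla, lies 5342 bases from Slc6a13 on chromosome 6. It had 6.49, 6.36 and 5.84 CPM in the libraries labelled Lpar3-/- and 4.63, 2.84 and 6.96 CPM in WT, so WT spanned the other group (log2 fold change 0.38, SE 0.26, edgeR adjusted p = 0.749). Slc6a8, the creatine carrier, had 315, 302 and 297 CPM in the libraries labelled Lpar3-/- and 298, 311 and 292 CPM in WT, with overlap (log2 fold change 0.02, 95% interval -0.12 to 0.17). The GABA carrier Slc6a11 was at 0 counts in every library. Loop of Henle markers, genes of a neighbouring part of the tubule, were at 6086 to 6366 CPM in sum in the libraries labelled Lpar3-/- and 4917 to 5573 CPM in WT, with 0 of 7 called and 5 at an unadjusted p under 0.05, all higher. Among all genes tested, 3.97% were higher at that p. The part of these markers in the small differences of the carriers was not tested.

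Carriers that supply growing or stressed cells averaged under 10 FPKM, and Slc38a2 was the highest of them. Slc7a5, the light chain LAT1 for large neutral amino acids, had 37, 39 and 43 counts (2.11, 2.46 and 2.49 CPM) in the libraries labelled Lpar3-/- and 70, 79 and 52 counts (3.95, 4.67 and 3.14 CPM) in WT. All libraries labelled Lpar3-/- were below WT, 1.67-fold in the mean (log2 fold change -0.74, SE 0.24, 95% interval -1.26 to -0.22, edgeR adjusted p = 0.318). The gene thus differed in the opposite direction to Slc7a8, its relative with overlapping substrates, although neither passed the threshold.

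Slc38a2, the carrier SNAT2 that responds to amino acid shortage, had 90.4, 87.8 and 78.0 CPM in the libraries labelled Lpar3-/- and 72.2, 93.8 and 90.8 CPM in WT, with a log2 fold change of -0.0034 (SE 0.099, 95% interval -0.22 to 0.21). Slc1a5, the glutamine carrier ASCT2, had 25.1, 32.1 and 28.1 CPM against 37.5, 34.3 and 25.8 CPM in WT (log2 fold change -0.20, SE 0.13, edgeR adjusted p = 0.735). Slc7a1, the arginine and lysine carrier CAT1, had 14.6, 15.6 and 14.6 CPM in the libraries labelled Lpar3-/- and 14.2, 13.4 and 16.7 CPM in WT (log2 fold change 0.02). The groups overlapped for all 3. The other tested members of this role, Slc38a1, Slc38a4 and Slc7a2, had log2 fold changes of 0.22, -0.07 and 0.19. Slc7a11, the cystine and glutamate exchanger xCT, was too low to test, with 1, 6 and 8 counts in the libraries labelled Lpar3-/- and 2, 4 and 11 in WT.

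Of the lysosomal and sensing members, 0 of 5 tested had an unadjusted p under 0.05, against 9.18% of all genes tested. Slc38a9, the lysosomal arginine sensor upstream of mTORC1, had 13.2, 12.9 and 13.06 CPM in the libraries labelled Lpar3-/- and 12.3, 12.4 and 14.9 CPM in WT (log2 fold change -0.02, 95% interval -0.28 to 0.25). Slc38a7, the lysosomal glutamine carrier, had 24.9 ± 0.799 against 28.6 ± 2.77 CPM in WT (log2 fold change -0.20), and Slc36a4, a proton-independent relative of Slc36a1, had 16.4 ± 0.870 against 14.0 ± 1.18 CPM in WT (SD, n = 3 each; log2 fold change 0.23). The groups did not overlap for Slc36a4. Slc38a10, the most abundant of the 5, had 203, 195 and 192 CPM in the libraries labelled Lpar3-/- and 194, 192 and 185 CPM in WT (log2 fold change 0.04), and Slc38a6 had a log2 fold change of -0.02.

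Of the 15 carriers grouped as neuronal or neurotransmitter carriers, 6 were tested. Slc6a15, the carrier B0AT2 for branched-chain amino acids and proline, had 10.02, 9.89 and 10.1 CPM in the libraries labelled Lpar3-/- and 12.9, 15.1 and 14.3 CPM in WT. All libraries labelled Lpar3-/- were below WT (log2 fold change -0.49, SE 0.12, 95% interval -0.76 to -0.23, edgeR adjusted p = 0.137). It passed in edgeR with no expression filter (adjusted p = 0.0386) and in none of the other alternatives. Slc6a4, the serotonin transporter gene, had 19.0, 16.8 and 14.6 CPM against 16.9, 12.0 and 11.1 CPM in WT (log2 fold change 0.33, SE 0.16), with overlap. Slc1a2 and Slc1a3, the glutamate carriers of astrocytes, Slc6a9, a glycine transporter gene, and Slc6a17 had log2 fold changes of -0.15, -0.50, -0.07 and 0.18 and overlapping groups. Neuron markers were near the limit of detection, with 0.786 to 2.33 CPM in sum over 7 genes across the 6 libraries and Snap25 and Th at 0 counts in each.

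The largest fold difference among the members was that of Slc36a2, a carrier of proline and glycine found in the proximal tubule and also in brown and beige fat cells. It had 9, 12 and 5 counts (0.513, 0.756 and 0.289 CPM) in the libraries labelled Lpar3-/- and 62, 32 and 17 counts (3.50, 1.89 and 1.03 CPM) in WT. All libraries labelled Lpar3-/- were below WT, but WT itself ranged widely. The difference, -2.05 on the log2 scale (SE 0.51, 95% interval -3.15 to -0.94), had an adjusted p of 0.144 in edgeR and 0.0367 in DESeq2. It was also past the threshold in edgeR with no expression filter (0.000153), and short of it in the other alternatives, with adjusted p-values up to 0.677. The log2 fold change was -1.49 without WT replicate 1 and ran from -2.40 to -0.49 over all alternatives, the smallest on the log2(FPKM + 1) scale, which understates changes of low genes. Slc7a10, a light chain gene known from neurons and white fat cells, was too low to test, with 0, 2 and 2 counts in the libraries labelled Lpar3-/- and 15, 11 and 4 in WT.

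Fat cell markers were lower alongside both genes. Summed over 8 markers they had 144, 240.1 and 149 CPM in the libraries labelled Lpar3-/- and 444, 341 and 228 CPM in WT. All 7 tested markers had a negative log2 fold change, with a median of -1.49, and 6 had an unadjusted p under 0.05, although 0 were called. Among all genes tested, 5.21% were lower at that p. Adipoq, which fat cells make, had 35, 90 and 56 counts in the libraries labelled Lpar3-/- and 252, 171 and 100 in WT, and Ucp1, the marker of brown fat, had 10, 3 and 0 against 10, 3 and 3 in WT. The order of the WT libraries was the same for Slc36a2, Slc7a10 and the marker sum, highest in replicate 1 and lowest in replicate 3. In the libraries labelled Lpar3-/- the marker sum and Slc36a2 were both highest in replicate 2. The marker sum and Slc7a10 were lowest in replicate 1, while Slc36a2 was lowest in replicate 3. Slc7a10 had only 0, 2 and 2 counts in these libraries. The part of fat cell RNA in these 2 genes was not tested.

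**Figure D4:**
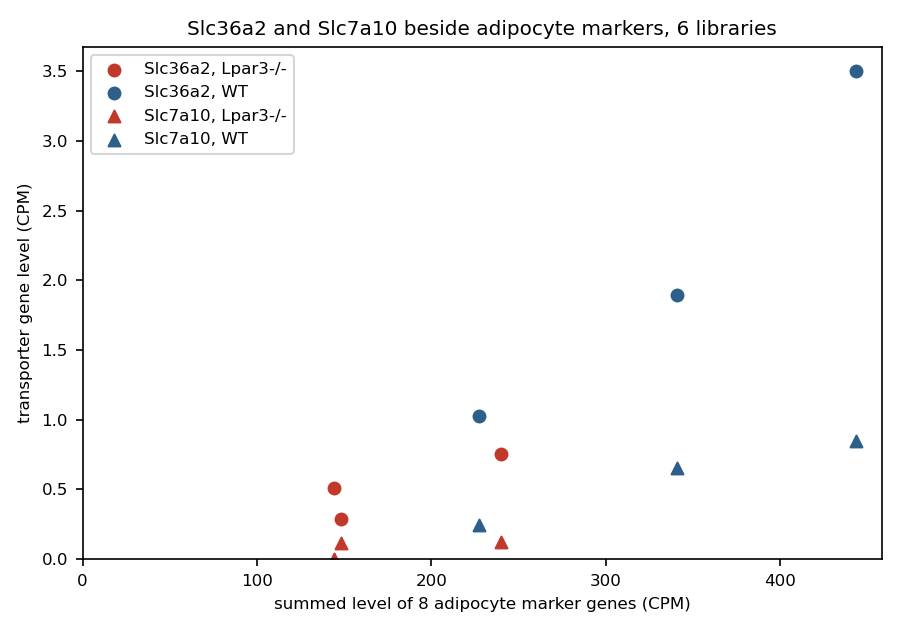
Level in CPM of Slc36a2 (circles) and Slc7a10 (triangles) against the summed CPM of 8 adipocyte marker genes, with 1 point per library, labelled Lpar3-/- (red) or WT (blue). Slc36a2 is highest, at 3.50 CPM, in the WT library with the highest marker sum, 444 CPM.

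Among the members outside the role groups, Slc7a4, a relative of the cationic carriers whose transport function is not settled, had 35, 56 and 42 counts in the libraries labelled Lpar3-/- and 73, 61 and 69 in WT (log2 fold change -0.59, SE 0.25, edgeR adjusted p = 0.505). The groups did not overlap, though 554 of its 4153 exonic bases are shared with P2rx6 on the opposite strand. Slc43a3, which carries purine nucleobases rather than amino acids, had 34.0 ± 0.765 against 33.1 ± 5.10 CPM in WT, and Slc7a6os had 16.8 ± 0.469 against 17.8 ± 3.20 CPM in WT (SD, n = 3 each). Slc38a11 had 7 to 22 counts in the libraries labelled Lpar3-/- and 10 to 14 in WT.

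Of the 19 members not tested, 7 had no count in any library, among them Slc1a6, Slc6a3, Slc6a11, Slc7a14, Slc36a3 and Slc38a8. A further 7 never exceeded 4 counts, namely Slc1a7, Slc6a2, Slc6a5, Slc6a7, Slc6a21, Slc7a3 and Slc38a5. The others were Slc6a14, Slc6a16 and Slc7a15 with Slc7a10 and Slc7a11, which reached 15 counts at most. These 19 genes were below the filter on low counts, and no test was made for them.

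Genes outside the families that work with these carriers or share their regulation were examined as 3 lists. Of 13 tested partners outside the families, edgeR called 1, against 0.374% of all genes, and the median log2 fold change was 0.012. An unadjusted p under 0.05 was reached by 2 higher and 2 lower partners, against 3.97% and 5.21% of all genes. The called gene, Mme, the brush border peptidase neprilysin, rose to 284 ± 16.1 CPM in the libraries labelled Lpar3-/-, against 213 ± 11.3 CPM in WT (SD, n = 3 each; log2 fold change 0.42, SE 0.074, edgeR adjusted p = 0.0386). That call did not hold without replicate 1 (adjusted p = 0.102), 2 (0.176) or 3 (0.277) of the libraries labelled Lpar3-/- or without WT replicate 3 (0.0815). Cltrn, the collectrin that Slc6a19 and Slc6a18 need to reach the brush border, had 1196 ± 46.9 CPM against 1315 ± 186 CPM in WT (log2 fold change -0.14, SE 0.097). Slc16a10, the basolateral carrier of aromatic amino acids, had 62.2 ± 2.82 CPM in the libraries labelled Lpar3-/- and 69.2 ± 3.28 CPM in WT, without overlap (SD, n = 3 each; log2 fold change -0.15, SE 0.070). Slc15a1, an apical peptide carrier, was low, with 17, 19 and 11 counts against 9, 10 and 4 in WT (log2 fold change 1.04). The small positive differences of Slc6a19 and Slc6a18 were thus not seen in Cltrn.

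Amino acid carriers of mitochondria and lysosomes went both ways. EdgeR called 0 of the 11 tested, and the median log2 fold change was 0.024. An unadjusted p under 0.05 was reached by 1 higher and 2 lower genes, against 3.97% and 5.21% of all genes. Slc25a15, the ornithine carrier, had 186 ± 12.1 against 219 ± 19.3 CPM in WT, and Slc25a12, an aspartate and glutamate carrier, 102 ± 4.69 against 90.7 ± 2.63 CPM in WT. Slc17a5, the lysosomal sialin, had 155 ± 2.83 against 174 ± 13.2 CPM in WT (SD, n = 3 each).

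Targets of ATF4, the factor that raises Slc7a5, Slc7a11 and Slc38a2 in amino acid shortage, had a median log2 fold change of -0.15 over 22 tested genes, 18 of them negative. EdgeR called 0, and 7 lower genes and 1 higher gene had an unadjusted p under 0.05. The higher gene was Cth (log2 fold change 0.20, SE 0.086). Over all genes tested, 5.21% were lower and 3.97% higher at that p, and 48.9% had a positive log2 fold change. Asns, asparagine synthetase, had 61, 37 and 44 counts in the libraries labelled Lpar3-/- and 65, 72 and 75 in WT (log2 fold change -0.57, SE 0.23), and Atf3 had 24, 14 and 17 against 21, 113 and 45 in WT (log2 fold change -1.70, SE 0.53). Nupr1 had 20.1 ± 4.46 against 28.6 ± 6.03 CPM in WT and Eif4ebp1, an inhibitor of translation initiation, 14.9 ± 0.547 against 19.0 ± 2.91 CPM in WT (SD, n = 3 each). For Atf3, WT replicate 2 stood far above the other libraries, and WT replicate 1 lay within the other group. All 8 macrophage markers had a negative log2 fold change, with a median of -0.56, 0 were called, and 4 had an unadjusted p under 0.05, all lower. C1qa, a complement gene of these cells, had 187, 179 and 195 counts in the libraries labelled Lpar3-/- and 285, 321 and 226 in WT, without overlap. In sum the markers had 217 to 255 CPM in the libraries labelled Lpar3-/-, 507 CPM in WT replicate 2 and 250.1 to 264 CPM in the other WT libraries, and their part in these values was not tested.

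Markers of the early proximal tubule, where many apical carriers are found, went both ways. Of 12, 7 had a negative and 5 a positive log2 fold change, with a median of -0.084, and 0 were called. An unadjusted p under 0.05 was reached by 1 higher and 5 lower markers, against 3.97% and 5.21% of all genes. The summed level of the 12 markers was 10251 to 10953 CPM in the libraries labelled Lpar3-/- and 9963 to 11215 CPM in WT, which overlap. Their part in the values of the carriers was not tested. The other 6 marker lists had 0 of 33 tested genes called, against 0.374% of all genes. Of the 33, 3 had an unadjusted p under 0.05, against 9.18% of all genes. List medians ran from -0.61 for T cell markers to 0.27 for liver markers, each with only 3 genes tested.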

How the data were processed

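Kidney mRNA of 3 libraries labelled Lpar3-/- and 3 WT libraries was measured by poly-A RNA sequencing. The submitters' processing notes name the build GRCm38, DESeq2 1.20.0, featureCounts 1.5.0-p3 and HISAT2 2.0.5, with no order or settings. Annotation release, strand setting and the handling of multi-mapped reads are not stated there. The authors deposited whole-number counts per gene. They also deposited FPKM values, which equal the counts divided by gene length and a library factor, with a largest relative deviation of 4.11e-08 over genes with a mean of at least 20 counts.

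The 377 rows without a gene name (0.259% to 0.362% of counts) were left out. The test was edgeR 4.0.16 quasi-likelihood in R 4.3.3 on all 6 libraries, with TMM, the default expression filter and Benjamini-Hochberg adjustment. Fold changes are libraries labelled Lpar3-/- over WT, and SEs come from the fold change and F statistic. Alternatives used DESeq2 1.42.0, limma 3.58.1 (voom, and log2 of FPKM plus a pseudocount), other normalizations and filters, a replicate block and leave-one-out fits. The main edgeR test, DESeq2, voom and the replicate block were tried on simulated data, and the other alternatives were not. Exon overlaps come from GENCODE M21, whose gene start and end matched for 61 of the 63 members. Named in full were members with an unadjusted p under 0.05, the 12 with the highest FPKM, the apical and basolateral groups and 5 stress-related carriers. Members and lists were chosen with earlier results of these data known. Precision is limited by counting error for low genes and by n = 3. A few genes are not reported here by name.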

Additional observations from a re-analysis of the deposited data

How the results depend on the processing

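Over 17 alternatives, the 28 tested members named by the rule in the processing section kept their direction and their side of the threshold in 449 values, passed the threshold in 7 more and turned direction in 20. Other members given in the text, such as Slc6a4, Slc6a12 and Slc38a9, were not among these 28. Without a filter on low counts edgeR called 520 genes in place of 57 (190 higher and 330 lower, against 19 and 38) and 3 members, with 1 apical, 1 basolateral and 1 neurotransmitter carrier and 2 ATF4 targets. DESeq2 called 171 genes (81 higher and 90 lower) and 2 members, with 1 apical and 1 basolateral carrier. Limma called 9 genes on log2(FPKM + 1), 13 on log2(FPKM + 0.1) and 4 on log2(FPKM + 1) with no filter, and 0 of the partner genes in each. The replicate block called 80 genes and 0 members, and Mme had an adjusted p of 0.0572, so 0 partners were called. Libraries with the same number correlated at 0.0106, 0.0196 and 0.0619 in their deviations, and those with unlike numbers at -0.0623 to 0.0400. The highest value was that of the replicates numbered 3. All these correlations were small, and the numbers were not taken as pairs. Leaving out 1 library at a time gave 12 to 149 genes called and 0 to 2 members, with 12 genes when Lpar3-/- replicate 1 was left out, 12 without replicate 3 and 26 without replicate 2 of that group, and 149 without WT replicate 1, among them Slc7a13 and Slc7a8. In these fits the median log2 fold change of the members ran from 0.014 to 0.065, and the apical, basolateral, ATF4 and partner counts each ran from 0 to 1. Slc38a2, at -0.0034, turned positive with DESeq2 (0.00076), limma-voom (0.0034), the replicate block (0.0024) and limma on log2(FPKM + 1) with and without a filter (0.0057) and on log2(FPKM + 0.1) (0.0068). Leaving out 1 library moved it from -0.11 to 0.068. The same fits turned Slc6a8 (-0.0013 to 0.049), Slc6a20b (-0.034 to 0.062), Slc7a6 (-0.21 to 0.00029), Slc7a1 (-0.048 to 0.12), Slc43a1 (-0.28 to 0.26), Slc1a4 (-0.30 to 0.16) and Slc7a7 (-0.020 to 0.14). The causes were not tested. Where a fit left 2 libraries in a group, the spread was pooled over both groups. Counting error limits genes with few reads, such as Slc36a2 and Slc7a5.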
